A study of Macaca fascicularis with 20 samples.

Results

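The genes described here build the route by which a new protein enters the endoplasmic reticulum (ER) and leaves it in vesicles. They were followed in splenic natural killer (NK) cells and B cells of the cynomolgus macaque (Macaca fascicularis) on 20 one-colour arrays. Members were taken by gene symbol alone. A probe belonged to the set if the transcript accession it carries, without its version, mapped to a fitting RefSeq symbol of the species. Fitting symbols were SSR1 to SSR4 and those that begin with SEC, SPCS, SRP, TMED or PDIA and a digit. Symbols that begin with SRPR, or with COP followed by A, B, G, E or Z, fitted too. Of 67 such genes in the reference, 52 had a probe, out of 12530 genes with a matched probe on the array. Where a gene had several probes (15 of the 52), the one of highest mean signal was used. The 15 genes with no matched probe were COPB2, COPZ1, COPZ2, PDIA2, SEC14L1, SEC14L3, SEC16B, SEC31B, SEC62, SPCS2, SRP14, SSR1, SSR3, SSR4 and TMED9. Of the 52 genes 48 were assigned to a step of this route. Among these the 4 PDIA genes encode folding enzymes, which are neither translocon nor coat proteins. The remaining 4 of the 52, SEC14L2, SEC14L4, SEC14L5 and SEC14L6, encode SEC14-like lipid-binding proteins. They share the prefix but were given no step, so they are described apart.

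Proteins bound for secretion, for the cell surface or for the granules of a killer cell are recognised as they emerge from the ribosome by the signal recognition particle, which docks at its receptor on the ER. They then pass through the SEC61 channel, lose their signal peptide to the signal peptidase and fold with the help of protein disulfide isomerases. COPII vesicles carry cargo from the ER toward the Golgi, COPI vesicles return it, and TMED (p24) proteins act as cargo receptors in both. Plasma cells enlarge this machinery to secrete antibody, and cytotoxic lymphocytes use it to supply perforin and granzymes.

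The NK cells were NKG2A+ CD8a+ cells from a live CD45+ CD3- CD14- CD20- HLA-DR- gate. They were divided by surface CD27, a costimulatory receptor, and CD11b, the alpha chain of an integrin, into double positives (CD27+ CD11b+, n = 5), CD27 single positives (CD27+ CD11blo, n = 4), CD11b single positives (CD27lo CD11b+, n = 5) and double-low cells (CD27lo CD11blo, n = 4). The B cells (n = 2) were NKG2A- CD8a- HLA-DR+ CD20+. All cells came from thawed spleen samples of animals of both sexes, labelled Cambodia, Vietnam or Singapore. The animals were aged 4 to 18 years where the labels give an age and had no genetic change, and no cells were stimulated. The labels call the replicates of the NK subsets biological but do not say which arrays of different subsets came from the same animal, so p-values measure the spread between arrays that may in part share an animal. NK subsets and B cells were compared to ask whether the secretory route differs between subsets of the CD27 and CD11b sort and between the lineages.

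Arrays stood on 3 slides. Replicates 1 and 2 of each NK subset were on the first slide. The B cell arrays shared the second slide with replicate 3 of each NK subset and with replicate 4 of CD27 single positives and of double-low cells. Double positives and CD11b single positives alone filled the last slide, with replicates 4 and 5. Replicates 1, 2 and 3 of each NK subset came from males labelled Cambodia or Vietnam. Both B cell arrays came from females labelled Singapore. So did replicate 4 of CD27 single positives and of double-low cells, and replicate 5 of the other 2 subsets. Replicate 4 of those 2 subsets came from males labelled Singapore. The part of sex and origin in the NK and B cell difference was not tested. The 75th percentile of the signal of an array, to which its levels were scaled, ran from 179.8 to 1901 units, and the 2 dimmest arrays were double-positive replicate 4 and double-low replicate 4 (200.6 units). Between lineages, 10 of 14 measured NK markers passed as higher in NK cells (median log2 difference 5.65), and 7 of 10 measured B cell markers passed as lower (median -4.49). All 5 measured T cell markers had higher values in NK arrays, although CD3 was gated out. TRAT1, an adaptor of the T cell receptor that was not above background on either B cell array, passed, and CD3D stood at 2.50 ± 0.85 (adjusted p = 0.106). The 5 summed to 5.04 to 14.0 times the 75th percentile of the array in NK arrays and 2.19 to 2.49 times in B cell arrays. Of 8 measured stromal and endothelial markers 7 had higher values in NK arrays (median 1.1) and none passed. They summed to 2.70 to 6.96 in NK arrays and 3.51 to 5.65 in B cell arrays, and 2 were above background on neither B cell array.

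Levels below are the log2 processed signal minus the log2 75th percentile of the array, so 0 is that percentile, and differences are log2 differences with limma standard errors. A level tells how one probe varies between arrays and says nothing of one gene against another. Of the 52 genes 32 were well above background on all 20 arrays. The dimmest was SEC14L2, above background on 3 arrays and on none of the CD27 single-positive or B cell arrays. It did not enter the comparisons among NK subsets, which therefore cover 51 genes. A change in a sorted sample cannot tell fewer cells of a kind from less RNA per cell.

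Of the comparisons within the NK lineage, that of CD27+ with CD27lo cells, balanced over CD11b, gave the most members at an unadjusted p under 0.05. The 51 genes had a median difference of 0.43 (33 positive, 18 negative), where the median of all 12192 genes tested was -0.37. No member passed an adjusted p of 0.05 in limma, and nor did any other gene (0% of all genes). At an unadjusted p under 0.05, 11 members were higher in CD27+ cells, where 6.37% of all genes were, and 0 were lower, where 15.8% of all genes were. The 11 were TMED5, PDIA6, SEC61A1, SPCS1, SSR2, TMED10, TMED2, SRPRA, SEC61G, SRP19 and SEC11A, and all had an adjusted p of at least 0.198. By step, 2 were genes of the particle and receptor, 2 of the channel and 2 of the signal peptidase. The others were the translocon-associated SSR2, 1 disulfide isomerase and 3 cargo receptors. No COPI or COPII gene was among them. The count of 11 was 6 without CD27 single-positive replicate 1, and 7 without double-positive replicate 1, 2 or 5 or without CD11b single-positive replicate 1.

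**Figure D1:**
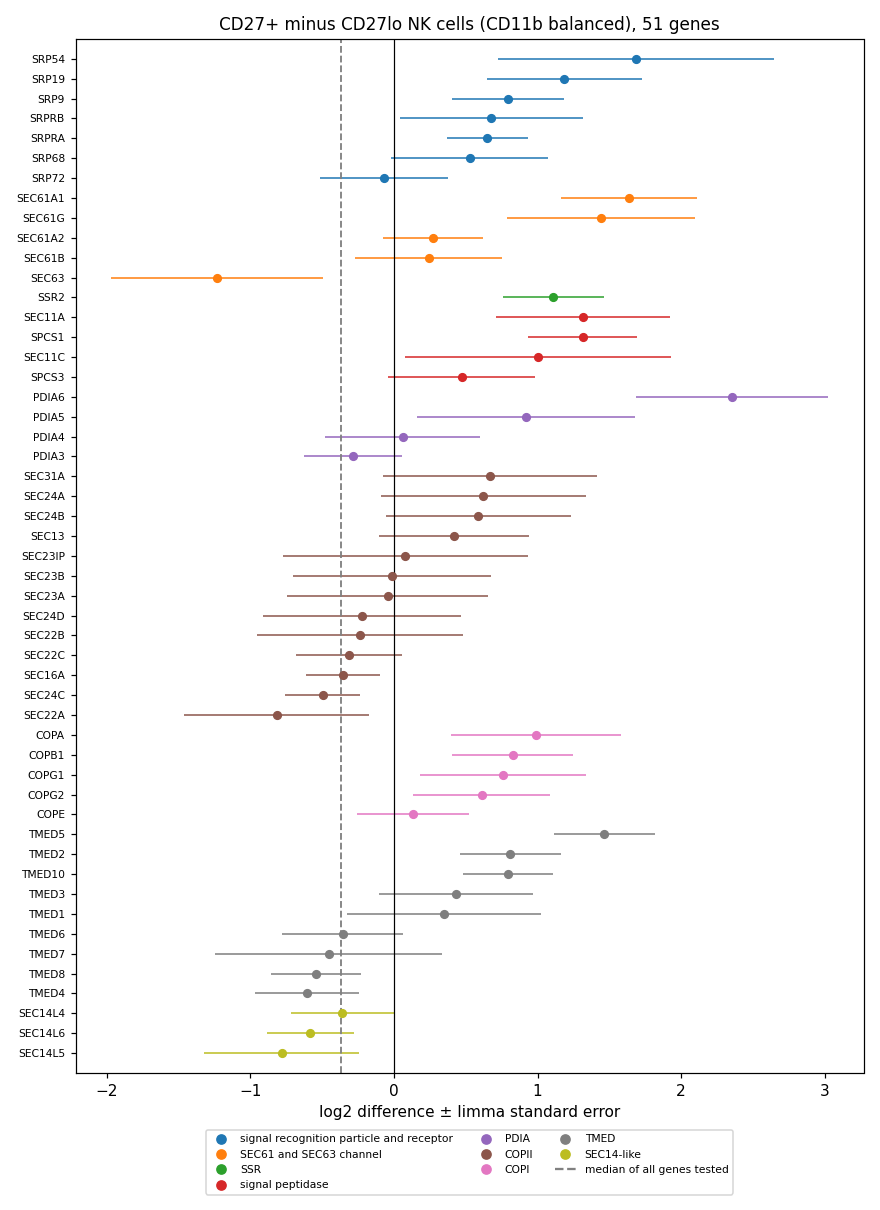
Difference between CD27+ and CD27lo NK cells (x axis, log2, balanced over CD11b; bars are limma standard errors) for 51 genes grouped by role, with the median of all 12192 genes tested as a dashed line. The genes of the COPI coat and the signal peptidase lie to the right of 0, the SEC14-like genes to the left, and the COPII genes on both sides.

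The first step, recognition and docking, leaned to the CD27+ cells in 6 of 7 genes (median 0.68), none of which passed. SRPRA, the receptor subunit that binds the particle, spanned 0.14 to 1.88 in the 9 CD27+ arrays (median 1.08) and -0.36 to 1.49 in the 9 CD27lo arrays (median 0.44). SRP19, an assembly subunit of the particle, spanned 0.65 to 3.15 in CD27+ arrays (median 2.33) and -1.83 to 2.75 in CD27lo arrays (median 1.27). The groups overlapped for both genes, with differences of 0.65 ± 0.28 and 1.19 ± 0.54. SRP54, the subunit that binds the signal peptide, had a larger but noisier difference of 1.69 ± 0.96. The other 4 genes lay between -0.07 (SRP72) and 0.80 (SRP9).

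In the channel, SEC61A1, which forms the pore, ranged from -4.12 to 0.47 in CD27+ arrays (median -0.85) and from -3.36 to -0.91 in CD27lo arrays (median -2.89). The lowest CD27+ value was that of double-positive replicate 4, the dimmest array, which was not above background for this gene and lay below every CD27lo array. The difference was 1.64 ± 0.47 (limma adjusted p = 0.198). Its small partner SEC61G differed by 1.44 ± 0.66, SEC61B by 0.24 ± 0.51, and the second pore gene SEC61A2 by 0.27 ± 0.35. SEC63, a partner of the channel in post-translational import, went the other way at -1.23 ± 0.74. None of the 5 passed.

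SSR2, the beta subunit of the translocon-associated protein complex, was the only SSR gene with a probe. It ranged from 1.21 to 3.76 in CD27+ arrays (median 2.75) and from 0.61 to 3.19 in CD27lo arrays (median 1.82), a difference of 1.11 ± 0.35 (adjusted p = 0.198). The lowest CD27+ array was double-positive replicate 3 and the highest CD27lo array CD11b single-positive replicate 4, and the groups overlapped. Both probes of SSR2 had the same sign.

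All 4 genes of the signal peptidase were positive (median 1.16). SPCS1, an accessory subunit, ranged from -0.43 to 3.23 in CD27+ arrays (median 1.46) and from -1.07 to 1.35 in CD27lo arrays (median 0.52), and differed by 1.32 ± 0.38 (adjusted p = 0.198). Among CD27+ arrays double-positive replicate 3 alone lay below the CD27lo median. The catalytic subunit genes SEC11A and SEC11C differed by 1.32 ± 0.61 and 1.01 ± 0.93, and the accessory subunit gene SPCS3 by 0.47 ± 0.51.

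Among the disulfide isomerases PDIA6, which also restrains stress sensors of the ER, ranged from -3.96 to -0.51 in CD27+ arrays (median -1.87), all of them above background. In CD27lo arrays it ranged from -7.56 to -2.0 (median -4.25), and 6 of the 9 were above background. Its difference of 2.35 ± 0.67 (adjusted p = 0.198) was the widest of the 51 genes. It was 1.1 with normexp background correction and 1.86 without the 2 dimmest arrays. On double-low replicate 4 PDIA6 was not above background, and its value (-6.27) was shared there by PDIA5, SEC23IP and SEC24D. PDIA5 stood at 0.92 ± 0.76, PDIA4 at 0.06 ± 0.54 and PDIA3, the isomerase of glycoprotein folding and of MHC class I loading, at -0.29 ± 0.34.

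The coats differed in sign, and they were not compared by a test. All 5 COPI genes were positive, from COPE at 0.13 ± 0.39 to COPA at 0.99 ± 0.59, and none passed. Of the 13 genes of the COPII coat and its partners 5 were positive (median -0.04). Against the median of all genes (-0.37), 11 of these 13 and all 5 COPI genes lay higher. The COPII genes ran from SEC22A, a SNARE-related gene, at -0.82 ± 0.65 to the outer coat gene SEC31A at 0.67 ± 0.75. The cargo-binding coat genes did not run together either, with SEC24A at 0.62 ± 0.72, SEC24B at 0.59 ± 0.65, SEC24C at -0.50 ± 0.26 and SEC24D at -0.22 ± 0.69.

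The TMED genes were split as well, with 5 of 9 positive and 6 of 9 above the median of all genes (-0.37). TMED5, which has been tied to the exit of GPI-anchored proteins and of WNT ligands, had the lowest p of all members. It ranged from -1.55 to 0.02 in CD27+ arrays (median -0.22) and from -3.30 to -0.01 in CD27lo arrays (median -2.18), a difference of 1.47 ± 0.35 (adjusted p = 0.198; 0.91 with normexp background correction). TMED10 and TMED2, which form the core of p24 complexes, differed by 0.79 ± 0.32 and 0.81 ± 0.35. TMED8 (-0.54 ± 0.31), TMED4 (-0.61 ± 0.36), TMED7 (-0.46 ± 0.79) and TMED6 (-0.36 ± 0.42) were on the other side of 0. The 3 SEC14-like genes tested were negative, from -0.36 (SEC14L4) to -0.78 (SEC14L5), and 1 of them lay above the median of all genes.

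**Figure D2:**
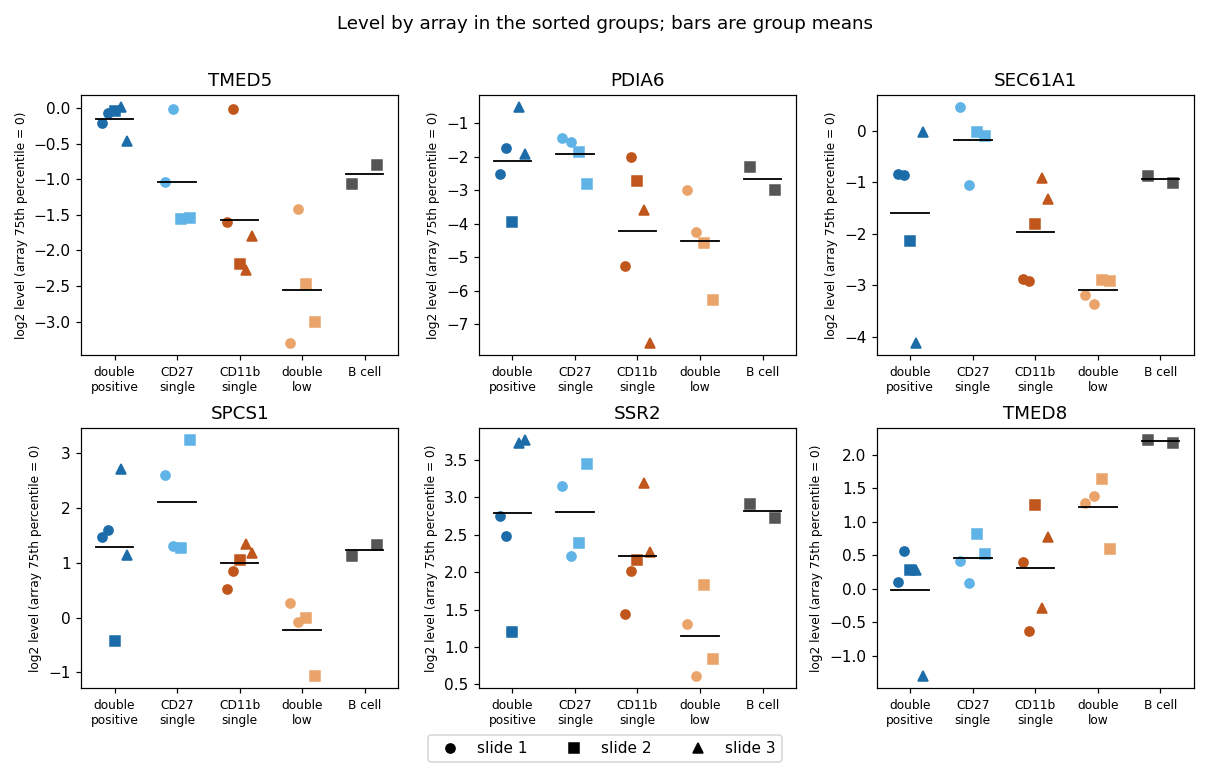
Level of 6 genes on each array (y axis, log2 relative to the 75th percentile of the array) in double positives, CD27 single positives, CD11b single positives, double-low cells and B cells, with marker shape for slide and a bar at the group mean. TMED5, PDIA6, SEC61A1, SPCS1 and SSR2 have their lowest mean in double-low cells, and the 2 B cell arrays lie above every NK array for TMED8.

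The CD27 difference was not the same on the 3 slides. On the first slide the median of the 51 genes was 0.90 with 36 positive, where all genes had -0.60. On the second it was -0.11 with 20 positive, where all genes had -0.13. On the last, where double positives were set against CD11b single positives, it was 0.04 with 28 positive, where all genes had 0.02. Positive on every slide were 11 members, COPA, COPB1, COPG2, PDIA5, PDIA6, SEC24A, SPCS1, SRP68, SRPRA, SSR2 and TMED5, where 11.3% of all genes were. Negative on every slide were 5 (SEC14L5, SEC16A, SEC22B, TMED6 and TMED8), where 22.9% of all genes were. TMED5 was positive by 1.25 on slide 1, 1.67 on slide 2 and 1.81 on slide 3. SEC61A1 stood at 2.51 on slide 1 and at -0.96 on slide 3. Of the 11 genes above at an unadjusted p, 6 were thus not positive throughout. SEC11A (-0.10), SRP19 (-0.11) and TMED2 (-0.28) were below 0 on slide 2, and SEC61A1, SEC61G (-0.84) and TMED10 (-0.69) on slide 3.

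**Figure D3:**
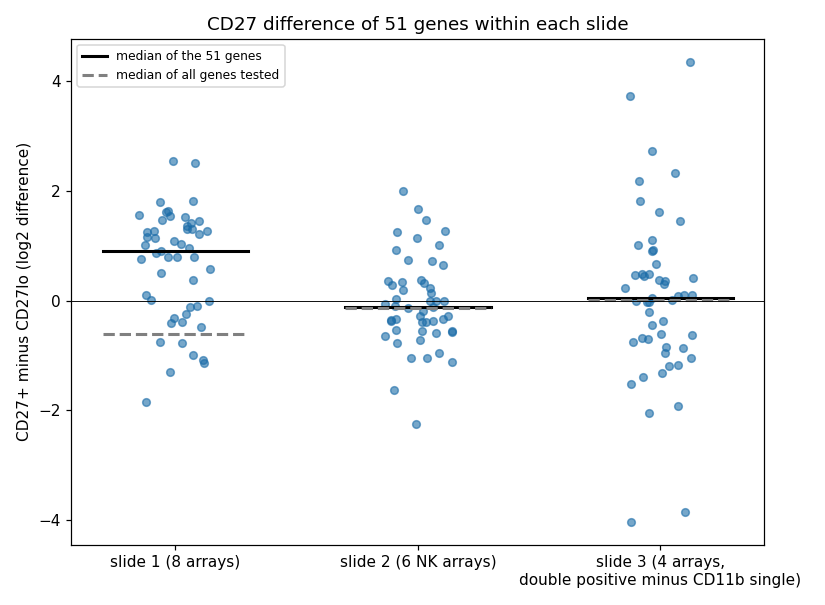
Difference between CD27+ and CD27lo NK cells within each slide (y axis, log2) for 51 genes, one point per gene, with the median of the 51 genes (solid) and of all genes tested (dashed). The 2 medians lie apart on the first slide (0.90 and -0.60) and close together on slide 2 (-0.11 and -0.13) and slide 3 (0.04 and 0.02).

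The signal of the arrays varied along with these genes. For each array the median of the 51 genes, each centred on the NK subset means, was taken minus the same median of all genes. It ran from -0.76 to 1.0 in CD27+ arrays (median 0.62) and from -0.93 to 0.76 in CD27lo arrays (median -0.28). The 75th percentile of signal was 179.8 to 1901 units in CD27+ arrays (median 1337) and 200.6 to 1395 units in CD27lo arrays (median 914.2). Over the 18 NK arrays the median difference and the log2 of the 75th percentile had a Pearson r of 0.57 and a Spearman rho of 0.70. Both are given as a description. Leaving out the 2 dimmest arrays gave an r of 0.65. The 8 arrays of slide 1 gave 0.93 and the 6 NK arrays of slide 2 gave 0.29. On slide 1 all CD27+ arrays were brighter than all CD27lo arrays, so there signal and CD27 cannot be told apart. Double-positive replicate 3, on the second slide, was the CD27+ array with the lowest value (-0.76), at 924.2 units. The median difference of all genes also ran with level, from -0.64 in the dimmest of 4 equal bins of genes to -0.06 in the brightest. The members' medians in the same bins were 0.01 (8 genes) and 0.47 (19 genes). The part of signal in the CD27 difference was not tested.

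**Figure D4:**
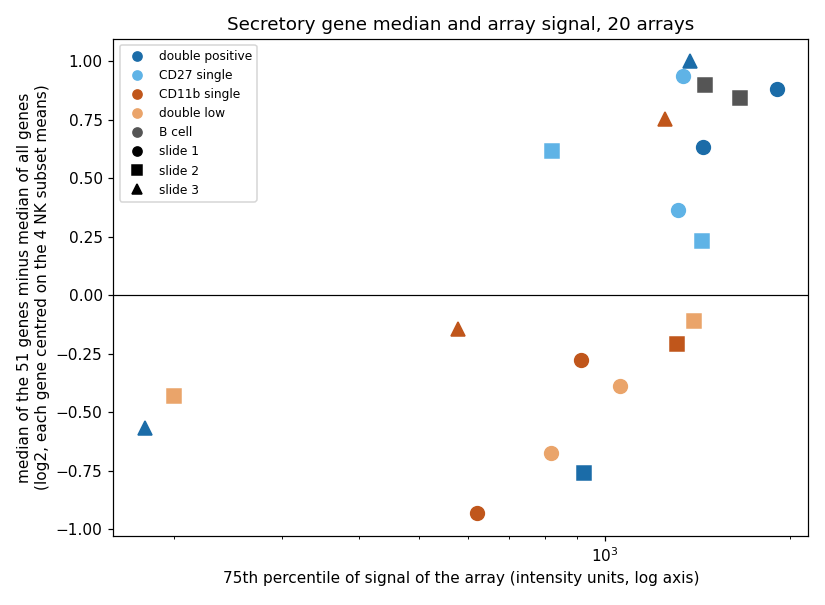
Median of the 51 genes minus the median of all genes on each of 20 arrays (y axis, log2, genes centred on the NK subset means) against the 75th percentile of signal of the array (x axis, intensity units, log axis). Colours give the sorted group and shapes the slide. The 2 B cell arrays lie at 0.84 and 0.90, and on the first slide the CD27+ arrays lie above 0 and the CD27lo arrays below it.

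Markers of other cells were followed in the same comparison, and none passed. Negative in CD27+ cells were 7 of 8 measured stromal and endothelial markers (median -0.75), 8 of 9 monocyte markers (-0.52), 6 of 7 dendritic cell markers (-0.64) and 3 of 3 erythroid markers (-0.80), where all genes had -0.37. So were 9 of 10 measured B cell markers (median -0.53). Positive were 4 of 5 T cell markers (median 0.16), 5 of 9 plasma cell markers (0.21) and, among the dendritic cell markers, IRF8, which lymphocytes also express (1.97 ± 0.50). The summed stromal level, in multiples of the 75th percentile of the array, was 2.80 to 6.81 in double positives, 2.70 to 4.73 in CD27 single positives, 3.93 to 6.96 in CD11b single positives and 3.54 to 5.30 in double-low cells. The summed monocyte level was 4.73 to 11.0 in double positives, 5.74 to 9.42 in CD27 single positives, 7.74 to 10.2 in CD11b single positives and 9.23 to 11.2 in double-low cells. The summed T cell marker level was 6.30 to 13.1 in double positives, 9.21 to 14.0 in CD27 single positives, 5.21 to 13.8 in CD11b single positives and 5.04 to 11.0 in double-low cells. The summed B cell marker level was 1.76 to 3.07 in double positives and 1.87 to 4.57 in CD27 single positives. It was 1.76 to 4.49 in CD11b single positives and 2.11 to 10.5 in double-low cells, against 55.0 to 60.2 in B cells. Only 1 stromal marker was above background on no array of an NK subset (double positives). Their part in the secretory gene values was not tested.

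Among pairs of subsets, double-low cells against CD27 single positives gave the most members at an unadjusted p. The 51 genes had a median of -0.61 (37 negative) where all genes had 0.44, and 0 passed (0% of all genes), while 8 were lower at an unadjusted p under 0.05, where 5.22% of all genes were. SEC61A1 was at -3.18, -3.36, -2.89 and -2.91 in double-low cells, against 0.47, -1.05, -0.02 and -0.10 in CD27 single positives. SPCS1 was at 0.26, -0.09, 0.00 and -1.07 in double-low cells, against 2.60, 1.30, 1.26 and 3.23 in CD27 single positives. TMED10 was at 2.12, 1.73, 3.06 and 2.60 in double-low cells, against 4.08, 3.69, 3.90 and 4.49 in CD27 single positives. The groups did not overlap for any of these 3, and the differences were -2.91 ± 0.70, -2.32 ± 0.57 and -1.66 ± 0.47 (adjusted p = 0.374 for each). All 4 double-low arrays lay below all 4 CD27 single-positive arrays for 10 genes, COPB1, PDIA6, SEC11A, SEC61A1, SEC61G, SPCS1, SRP54, SSR2, TMED10 and TMED2, where 3.72% of all genes did so. They lay above for SEC14L4 and SEC14L6, where 16.8% of all genes did so. These genes were singled out after their values were seen.

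CD11b single positives against CD27 single positives, which differ in both markers, gave a median of -0.59 (37 of 51 negative), where all genes had 0.19. None passed (0% of all genes), and 3 members had an unadjusted p under 0.05, where 5.23% of all genes did. SEC61A1 was at -2.87, -2.91, -1.81, -0.91 and -1.32 in CD11b single positives, against 0.47, -1.05, -0.02 and -0.10 in CD27 single positives. The lowest CD27 single-positive array lay within the range of the CD11b single positives, and the difference was -1.79 ± 0.67. COPB1, a core subunit of the COPI coat (-1.51 ± 0.60), PDIA6 (-2.31 ± 0.95), SPCS1 (-1.11 ± 0.54) and SEC31A (-2.09 ± 1.06) followed, all with an adjusted p of 0.812. The SEC31A value rests on CD11b single-positive replicate 1, at -6.83 where the other 4 arrays of the subset spanned -2.73 to -0.19. Without that array the difference was -0.91. The PDIA6 difference was -1.48 without CD11b single-positive replicate 5, and that of SPCS1 was -0.74 without CD27 single-positive replicate 4.

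Over all 4 subsets TMED5 had the lowest p of the members. It was at -0.22, -0.07, -0.04, 0.02 and -0.46 in double positives, at -1.03, -0.01, -1.55 and -1.55 in CD27 single positives, at -1.60, -0.01, -2.18, -2.27 and -1.80 in CD11b single positives and at -3.30, -1.42, -2.48 and -3.01 in double-low cells. The means ran down in that order, from -0.15 to -2.55, and neighbouring subsets overlapped. In limma's F test over the subsets 6 members had an unadjusted p under 0.05 (TMED5, SEC61A1, SPCS1, SSR2, TMED10 and PDIA6), where 8.72% of all genes did, and none passed (0% of all genes; adjusted p = 0.561). Double positives differed from double-low cells at an unadjusted p in 7 members, where 20.9% of all genes did, led by TMED5 (2.40 ± 0.50, adjusted p = 0.129) and SSR2 (1.64 ± 0.49, adjusted p = 0.165). Against CD11b single positives 2 members did (TMED5 at 1.42 ± 0.47 and PDIA6 at 2.10 ± 0.89), where 5.91% of all genes did. Against CD27 single positives 2 did (SEC22B at -2.43 ± 1.01 and SEC61A1 at -1.42 ± 0.67), where 2.42% of all genes did. For both genes double-positive replicate 4, the dimmest array, was the lowest of its subset (-4.41 and -4.12) and not above background. CD11b single positives against double-low cells gave 2 (SPCS1 at 1.21 ± 0.54 and SSR2 at 1.07 ± 0.49), where 3.58% of all genes did. No member and no other gene passed in these pairs (0%). The interaction of CD11b with CD27 gave 3 members, TMED10, SEC61A1 and SPCS1, where 1.44% of all genes had such a p, and none passed (0%).

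CD11b by itself, balanced over CD27, left the genes near the rest. Their median was -0.20 (34 of 51 negative), where all genes had -0.13. None passed, where 0.0164% of all genes did, and 3 had an unadjusted p under 0.05, where 5.04% of all genes did. TMED5 ranged from -2.27 to 0.02 in the 10 CD11b+ arrays (median -0.34) and from -3.30 to -0.01 in the 8 CD11blo arrays (median -1.55), a difference of 0.93 ± 0.35. SEC22B, a SNARE of ER and Golgi transport (-1.58 ± 0.72), TMED8 (-0.70 ± 0.31), TMED6 (-0.82 ± 0.42) and TMED7 (-1.53 ± 0.79) were lower in value. All 5 had an adjusted p of 0.946, and the groups overlapped for each. Double-positive replicate 4 was not above background for SEC22B, TMED6 or TMED7. Without that array SEC22B was at -1.12 and TMED6 at -0.63. TMED7, at -5.84 on that array, was also not above background on CD11b single-positive replicate 5 (-6.11), and its difference was -1.05 without replicate 5.

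Between NK and B cells most secretory genes had the lower value in NK cells. The 52 genes had a median of -0.56 (39 negative, 13 positive), where all 12388 genes tested had 0.36. The members' median was -0.26 with normexp background correction and -0.31 over the 32 genes above background on every array. The median of all genes depended on level, at 0.92 in the dimmest of 4 equal bins and 0.09 in each of the 2 brightest. Those 2 bins held 36 members, with medians of -0.38 and -0.46, so the gap was narrower there than over all genes. SEC14L2, not above background in B cells, is counted among the positive by its measured value, and without it the median was -0.57. None passed in limma, where 2.92% of all genes did. At an unadjusted p 3 were higher, where 17.5% of all genes were, and 1 was lower, where 5.18% of all genes were. All 7 genes of the recognition particle and its receptor were negative (median -0.92), from SRP54 at -1.59 ± 1.48 to SRPRA at -0.33 ± 0.43. So were all 4 of the signal peptidase (median -0.70) and 12 of 13 of the COPII group (median -0.61), and none of these passed.

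TMED8, a p24-like gene with a Golgi dynamics domain, was the member nearest the threshold. It ranged from -1.31 to 1.64 in the 18 NK arrays (median 0.47), against 2.22 and 2.18 in B cells. Both B cell arrays lay above all NK arrays, the only member of which this was true, where 3.17% of all genes did so, and the difference was -1.71 ± 0.48 (adjusted p = 0.0572). In double positives TMED8 was at 0.09, 0.56, 0.28, 0.28 and -1.31, and it fell by 2.22 ± 0.53 on the log2 scale relative to B cells (adjusted p = 0.0364). That was the only member to pass against B cells in any subset, where 1.57% of all genes passed for double positives and 11.1% had an unadjusted p under 0.05 (4 members). In the other subsets TMED8 differed by -1.89 ± 0.53 (CD11b single positives, adjusted p = 0.0713), -1.74 ± 0.55 (CD27 single positives, adjusted p = 0.185) and -0.97 ± 0.55 (double-low cells, adjusted p = 0.196). Between double positives and double-low cells TMED8 differed by -1.24 ± 0.44 (adjusted p = 0.188). The call in double positives was lost without B cell replicate 1 (adjusted p = 0.415) or 2 (0.383), double-positive replicate 1 (0.0561) or 5 (0.0578), or double-low replicate 1 (0.0503) or 2 (0.0530). It was also lost with median scaling (0.0550), with slide as a block (0.179) and on the second slide alone (0.108), where the difference was -1.92. The comparison of all NK cells passed for TMED8 without CD11b single-positive replicate 4 (0.044) or double-positive replicate 5 (0.0370).

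**Figure D5:**
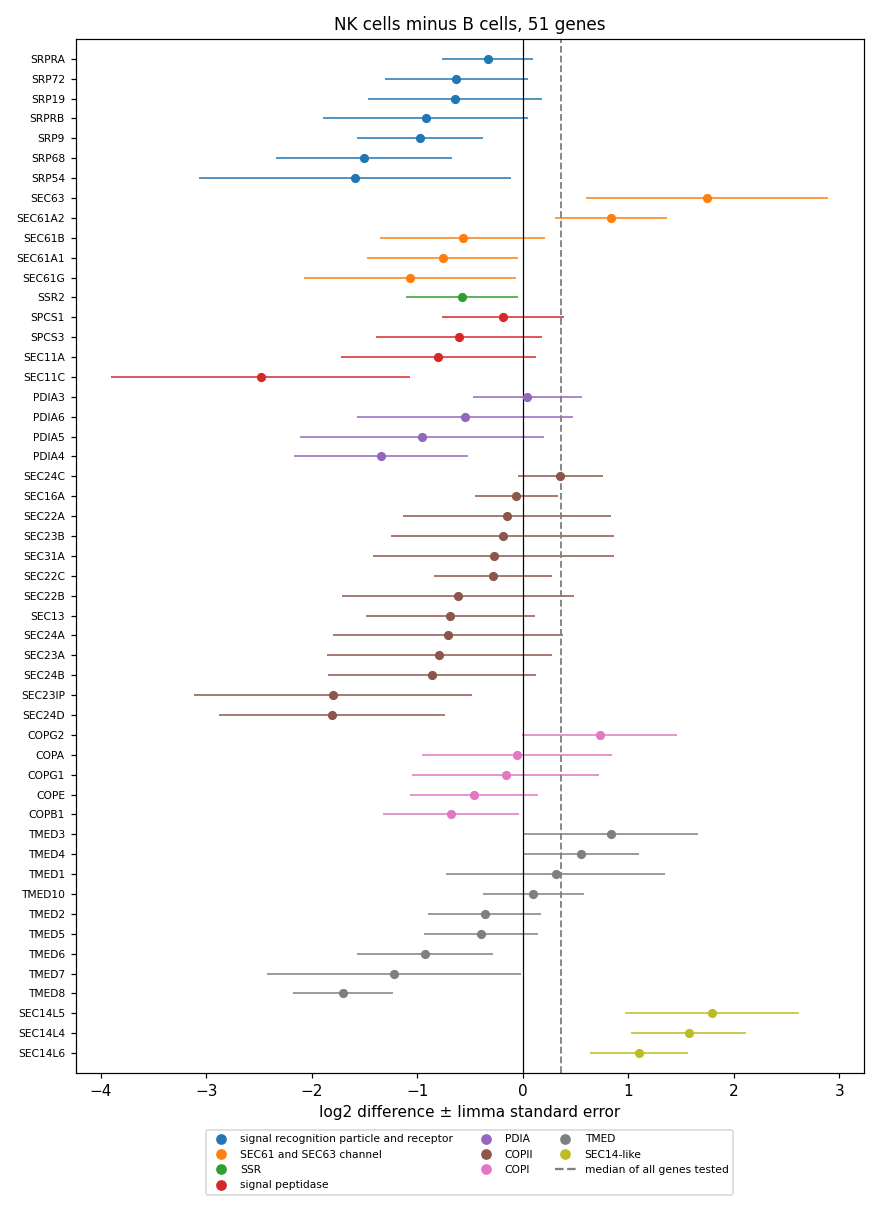
Difference between NK cells and B cells (x axis, log2; bars are limma standard errors) for 51 genes grouped by role, SEC14L2 left out, with the median of all 12388 genes tested as a dashed line. All genes of the signal recognition particle, its receptor and the signal peptidase lie to the left of 0 and the 3 SEC14-like genes shown to the right.

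Other leading genes had wide errors. SEC11C was at -5.26 to 1.82 in NK arrays (median -0.34), against 1.70 and 1.68 in B cells, with all but 1 NK array below both B cell arrays, and differed by -2.48 ± 1.42. SRP68 differed by -1.51 ± 0.84, SRP9 by -0.98 ± 0.60, PDIA4 by -1.35 ± 0.82, PDIA5 by -0.96 ± 1.16, SEC24D by -1.81 ± 1.07 and SEC23IP, a partner of the inner COPII coat, by -1.80 ± 1.32. Their adjusted p lay between 0.274 and 0.593. Of the 18 NK arrays PDIA5 was above background on 8, SEC24D on 13, and SEC23IP and SRP68 on 14 each. COPB1 (-0.68 ± 0.64) and COPG2 (0.73 ± 0.73), both COPI coat genes, pointed opposite ways. So did the channel genes, with SEC61A2 at 0.83 ± 0.53 and SEC63 at 1.74 ± 1.15 in value above B cells, and SEC61G at -1.07 ± 1.01 below. SEC63 was above background on 1 of the 2 B cell arrays. TMED6 was at -0.93 ± 0.64, SSR2 at -0.58 ± 0.53 and SEC11A at -0.80 ± 0.92. With only 2 B cell arrays several of these rested on one of them. Without B cell replicate 1 SEC24D was at -1.0 and SEC63 at 2.69, and without replicate 2 they were at -2.62 and 0.79. SEC23IP was at -2.74 without replicate 1 and -0.87 without replicate 2, and without replicate 2 COPG2 was at 0.47 and TMED6 at -0.59.

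Of the SEC14-like genes 3 stood on the other side. SEC14L4 ranged from -2.18 to 0.25 in NK arrays (median -1.20), against -2.77 and -2.86 in B cells, with no overlap of the groups; 7.46% of all genes were likewise above B cells on all NK arrays. It differed by 1.57 ± 0.55 (adjusted p = 0.111). SEC14L6 ranged from -2.03 to -0.04 in NK arrays (median -0.95), against -1.75 and -2.43 in B cells, and differed by 1.1 ± 0.47 (adjusted p = 0.177). SEC14L5 stood at 1.79 ± 0.83 (adjusted p = 0.207). SEC14L2 was not well above background on either B cell array, and its NK mean of -5.98 lay below the bound of -5.21 that this sets, so no fold is given.

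By subset, double-low cells had a median of -0.78 against B cells over the 52 genes, CD11b single positives -0.74, double positives -0.39 and CD27 single positives 0.03. The medians of all genes were 0.62, 0.42, 0.17 and 0.28. These comparisons share the B cell arrays. In double-low cells 0 members passed, where 9.11% of all genes did, and 8 had an unadjusted p under 0.05, where 36.7% of all genes did. In CD11b single positives 0 passed, where 1.93% did, and 4 had such a p, where 22.8% did. In CD27 single positives 0 passed, where 1.29% did, and 1 had such a p, where 11% did. SEC61A1 differed from B cells by -2.14 ± 0.83 in double-low cells (adjusted p = 0.0817) and SSR2 by -1.67 ± 0.62 (0.0733).

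The summed level of plasma cell markers was higher in B cell arrays, which lay at the bright end of signal. The 9 measured plasma cell markers summed to 0.90 to 4.63 in NK arrays and 10.2 to 16.0 in B cell arrays, in multiples of the 75th percentile of the array. Of the 9, 6 had lower values in NK cells and 1 passed, POU2AF1, a coactivator of B cells too. The other 3 had higher values in NK cells, PRDM1 at 2.65 ± 1.08, MZB1 at 0.61 ± 0.46 and FKBP11 at 0.34 ± 0.63, and did not pass. All but 1 of the 9 plasma cell markers were above background in each sorted group on at least 1 array, the exception being in double-low cells. The 75th percentile of signal was 179.8 to 1901 units in NK arrays (median 1157), against 1657 and 1452 units in B cells. Both B cell arrays were on the second slide, and on that slide alone the members' median was -0.62 (all genes 0.48). Their part in the NK and B cell difference was not tested.

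Genes that act beside the members leaned the same way in value. In CD27+ against CD27lo cells 19 of 23 other ER folding genes were positive (median 0.60), 19 of 24 genes of the unfolded protein response and ER-associated degradation (0.70), 25 of 35 other genes of transport between ER and Golgi (0.40), 8 of 11 oligosaccharyltransferase genes (0.51) and 10 of 18 genes of other membrane insertion routes (0.33), where all genes had -0.37, and none passed (0% of all genes). TRAM1, which assists the channel, was at 1.18 ± 0.32 and EIF2AK3, the stress sensor kinase PERK, at 2.23 ± 0.73 (adjusted p = 0.198 and 0.199). In NK against B cells the medians of the same lists were -0.27, -0.69, -0.66, -0.58 and -0.23, where all genes had 0.36, and 1 gene passed, where 2.92% of all genes did. It was SYVN1, the ubiquitin ligase HRD1 of ER-associated degradation, which fell by 2.0 ± 0.50 on the log2 scale (adjusted p = 0.0347). ERP29, an ER folding factor (-1.93 ± 0.65, adjusted p = 0.103), ERO1B, an oxidase of disulfide formation (-1.98 ± 0.83), ERGIC1, of the ER-Golgi intermediate compartment (-2.88 ± 1.0), GOSR2, a Golgi SNARE (-1.63 ± 0.68), EIF2AK3 (-2.67 ± 1.11), DERL3, of ER-associated degradation (-1.51 ± 0.50), OSTC, an oligosaccharyltransferase subunit (-1.31 ± 0.62), and BAG6, of tail-anchored insertion (-0.88 ± 0.47), did not pass. GET3, the ATPase of that insertion route, stood at 1.13 ± 0.51 and ARFGAP1, which acts on the COPI coat, at 1.14 ± 0.48.

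Where a gene had several probes they mostly pointed one way. In 14 of 15 genes they had the same sign between CD27+ and CD27lo cells, the exception being SEC23B, and in 13 of 15 between NK and B cells, the exceptions being COPA and PDIA3. TMED5 and SSR2 had 2 probes each, with the same sign in both comparisons.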

How the data were processed

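Scanner files hold the processed signal, an intensity after background subtraction and detrending, per the file headers. Agilent Feature Extraction 10.7.1.1 and Partek are the tools in the submitters' processing notes; how they were set is not stated there. The deposited matrix, used as an alternative only, holds log2 values whose 20 columns share a median of 8.02 and are not centred by gene. Per the labels, 50 ng of RNA was amplified isothermally and labelled with Cy3.

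Of 58659 probes 20417 (34.8%) matched a gene of the RefSeq table (assembly T2T-MFA8v1.1). Outlier spots were left out and spots of a probe averaged, and log2 signal was set against the 75th percentile of each array. Probes well above background on at least 4 NK arrays, or 2 of all arrays for B cell comparisons, entered limma 3.58.1 (R 4.3.3; lmFit and a robust eBayes with trend; no block). Adjusted p is Benjamini-Hochberg over all genes, with a threshold of 0.05. NK cells are the mean of the 4 subset means. Scripts were tested on simulated data. The number of arrays limits precision.

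Members, lists, tests and alternatives were chosen with earlier results of these data known. Named by rule were members past the threshold, the 2 of lowest p per role and 3 per list between NK and B cells, and the 5 of lowest p for CD27, for CD11b and between the single positives; other members are named by their values. Normexp used median spot signals. Promoter and protein features planned for the members were not analysed here.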

Additional observations from a re-analysis of the deposited data

Results flagged for a closer look

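Within groups of 4 or 5 arrays, 10 of 96 groups tested over 24 genes held 1 array apart from the rest by Dixon's test, where chance alone marks about 1 in 20. Double-positive replicate 4, the dimmest array, was high for COPG2 (2.69) and low for SRP68 (-5.84, not above background). SEC23A, SEC23B, SRP72, SRPRB, TMED7 and other members had that same value on this array, so it is not particular to SRP68. CD11b single-positive replicate 4 was high for PDIA5 (-3.0) and SRP9 (2.07). CD11b single-positive replicate 5 was low for SEC11A (-3.08) and TMED7 (-6.11, not above background). SEC11A was also apart in double-positive replicate 3 (-1.01, low) and double-low replicate 4 (0.84, high). CD27 single-positive replicate 1 was high for SEC31A (0.92), and double-positive replicate 5 was low for TMED8 (-1.31).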

How the results depend on the processing

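Leaving out 1 array at a time gave 0 to 5 calls of members over the 4 subsets against B cells (1 with all arrays; 5 without CD11b single-positive replicate 4, 3 without double-positive replicate 3 or 4, and 0 without double-low replicate 1 or 2, double-positive replicate 1 or either B cell array), 0 to 1 for NK against B cells, and 6 to 13 members higher at an unadjusted p between CD27+ and CD27lo cells. The CD27 median over members stayed between 0.29 and 0.61 and the NK against B median between -0.59 and -0.43. Calls of subsets against B cells were 0 with median scaling or the second slide alone, 3 with slide as a block and 39 with array weights. Array weights also gave 11 calls for NK against B cells, 15 for CD27, 6 over the 4 subsets and 16 in the other pairs; they called 46.2% and 34% of all genes in the B cell and CD27 comparisons. The first slide alone gave 13 calls for CD27, a median of 0.90 and 23 members higher at an unadjusted p, with 13.1% of all genes called. The second slide alone gave a CD27 median of -0.11 with 2 such members, and 4 calls for NK against B cells, with 15.7% of all genes called. Among genes named by rule, in the comparison that named them, 3 signs turned, PDIA5 in NK against B cells to 0.0674 with normexp, TMED7 for CD11b to 0.13 on the first slide and SEC31A between the single positives to 0.13 on the second. The replicate block called 0 members for CD27, with a median of 0.43 and 13 members higher at an unadjusted p, and changed no call. Same-numbered arrays correlated above 0.1 in 17 of 25 pairs (median 0.22, against -0.07 for other pairs), not in all. By the labels number 4 holds both females and males, so there the replicate block joined different animals. Numbers were therefore not taken as pairs, although some may mark shared animals. A random block by labelled origin, sex and age also called 0 members for CD27, with a median of 0.43. It left 12 members higher at an unadjusted p. In that block the replicate 3 arrays of the NK subsets were joined, although their labelled ages run from 9 to 12 years. There the random block, like the replicate block, may have joined different animals. The causes were not tested. The CD27 median and the count at an unadjusted p were added after seeing the data. The promoter window was not run, since no promoter sequence was used here.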
